A study of Rattus norvegicus and Ovis aries with 113 samples.

Results

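The 9 genes MBP, MOBP, MOG, MAG, CNP, CLDN11, MAL, OPALIN and APOD were followed across 10 brain regions and sperm of sheep and across brain, ovary and sperm of rats. They were taken as a list of myelin genes, by symbol, and each was found once in the sheep table, as 9 of 31304 genes, and once in the rat table, as 9 of 38675 genes. The rule uses no measured value, but the list was drawn up with earlier results of these data known.

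The series sets nervous tissue beside reproductive samples to ask which genes serve both. It holds RNA sequencing of 55 sheep and 58 rat libraries. From each of 5 post-pubertal male sheep, numbered 687, 688, 690, 694 and 699, came 1 library each of basal ganglia, cerebellum, entorhinal cortex, frontal cortex, hippocampus, motor cortex, pons, posterior parietal cortex, prefrontal cortex and visual cortex, taken from the same hemisphere, and 1 library of sperm. From Sprague Dawley rats, an outbred laboratory stock, came whole brain and sperm of 15 post-pubertal males, the sperm from seminal fluid, and whole brain and ovary of 14 females. No animal was treated, and no strain or age was given for the sheep.

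Myelin is the stack of membrane that oligodendrocytes wrap around axons in the central nervous system. Tracts of wrapped axons make up white matter, which is plentiful in the pons and sparse in the upper layers of cortex. Its proteins have different places in the sheath. MBP and MOBP hold the inner faces of the membrane together, CLDN11 forms the tight junctions between its turns, CNP lies in the cytoplasmic channels, MAG faces the axon and MOG sits on the outermost turn. MAL is a lipid raft protein that sorts membrane cargo in oligodendrocytes and in several epithelia, OPALIN is a membrane glycoprotein of oligodendrocytes, and APOD is a secreted lipid carrier made by oligodendrocytes among other cells.

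Levels are counts per 1000000 counts of a library (CPM), with the SD over animals. Library totals, in units of 1000000 counts, ran from 46.7 to 72.4 in sheep brain, 13.7 to 65.1 in sheep sperm, 38.2 to 119 in rat brain, 50.5 to 60.3 in ovary and 13.7 to 65.1 in rat sperm. CPM are not divided by gene length, so a level is compared between samples for 1 gene and not between genes. In tissue libraries a lower level can come from fewer oligodendrocytes or from less RNA per cell, which cannot be told apart. A gene was called in a comparison of groups at a Benjamini-Hochberg adjusted p below 0.05 and a log2 fold change of at least 1 in size, by the quasi-likelihood test of edgeR over all genes tested. In a test for any difference among several groups only the adjusted p was used.

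All 9 genes differed among the 10 sheep regions, with edgeR adjusted p from 1.3e-09 for APOD to 3.96e-06 for MBP. Such differences were common in these tissues, since 76.7% of the 21147 genes tested passed that test. The pons had the highest mean of each of the 9 genes. The lowest mean was in the prefrontal cortex for 6 of them and in the cerebellum for MOBP, MAL and OPALIN. Together the 9 genes held 3.78% ± 1.88 (SD, n = 5) of all counts in the pons, with a range of 1.6 to 6.52%. Most of these counts were of MBP, with a mean of 27423 CPM in the pons, so the share mainly follows MBP. In the other 9 regions their mean share ran from 0.301% in the prefrontal cortex to 0.86% in the motor cortex, and the lowest of the 50 brain libraries was at 0.106%.

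**Figure D1:**
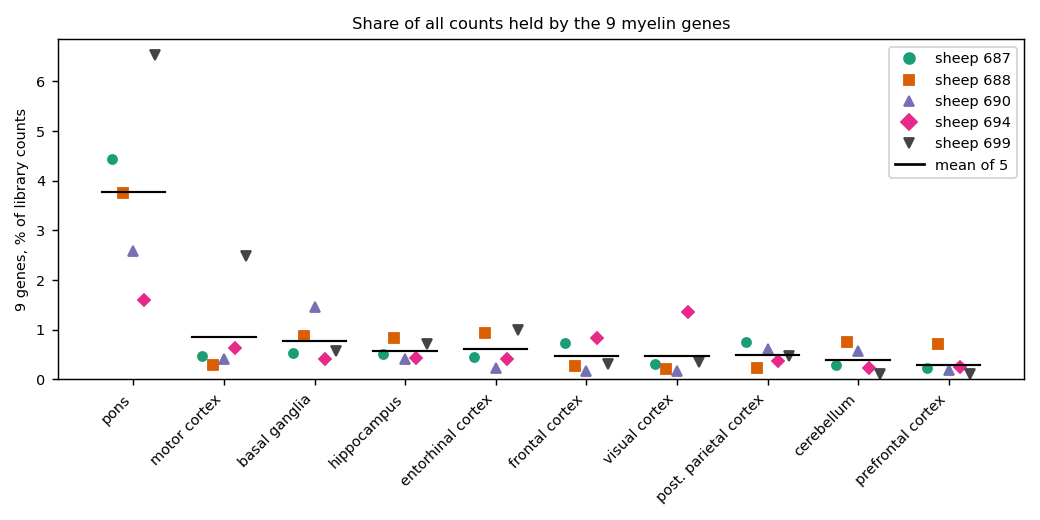
Share of all counts of a library held by the 9 myelin genes, in percent, in 10 brain regions. In the pons most of these counts are of MBP. Each point is the library of 1 sheep and each bar the mean of 5 sheep. The pons libraries sit between 1.6 and 6.52%, and sheep 699 is highest both there and in the motor cortex.

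In the pons all 9 genes were called higher than in the mean of the other 9 regions, where 9.66% of all genes tested were called higher and 9.02% lower. The median log2 fold change of the 9 genes was 2.71, beside 0.03 over all genes tested. The same 9 genes were called with each sheep left out in turn, and also without the pons library of sheep 694 alone.

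MBP, the basic protein that compacts the membrane, was counted at 31584, 28334, 20096, 11806 and 45297 CPM in the pons of sheep 687, 688, 690, 694 and 699. The other 45 brain libraries lay between 648 and 18695 CPM, so 4 of the 5 pons libraries were above all of them, and 1 other library, the motor cortex of sheep 699, was above the lowest pons. Within an animal the pons held 7.27 ± 2.73 (SD, n = 5) times the mean of the other 9 regions, and the log2 fold change was 2.95 ± 0.37 (SE) with an edgeR adjusted p of 1.07e-08. After the pons the order of MBP means ran from the motor cortex (6062 ± 7141 CPM) and basal ganglia (5297 ± 2790 CPM) down to the prefrontal cortex (2141 ± 1896 CPM, SD, n = 5 each). Only the step from the pons to the next region was larger than the SD of the difference within animals.

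MOBP, the second membrane-compacting protein, was at 7208, 3927, 2901, 1783 and 10799 CPM in the pons of the same animals in the same order. Here 3 of 5 pons libraries were above all 45 others, which reached 3125 CPM. Its log2 fold change was 2.76 ± 0.35 (SE), with an edgeR adjusted p of 1.06e-08. CLDN11, the tight junction protein of the sheath, was at 567, 588, 236, 268 and 1168 CPM in the pons. The highest other library was the basal ganglia of sheep 690 at 262 CPM, and the log2 fold change was 2.71 ± 0.28 (SE, adjusted p 7.6e-11 by edgeR).

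Of the proteins at the edges of the sheath, CNP was at 1470, 1261, 726, 658 and 2505 CPM in the pons of sheep 687, 688, 690, 694 and 699. MAG, the receptor facing the axon, was at 596, 532, 305, 269 and 1025 CPM. In both cases 3 of 5 pons libraries were above all 45 others and the pons was the highest region in each of the 5 animals. Their log2 fold changes were 2.46 ± 0.27 and 2.59 ± 0.30 (SE), with edgeR adjusted p of 5.89e-10 and 1.1e-09. MOG, the protein of the outermost turn, was at 218, 208, 114, 105 and 438 CPM, with a log2 fold change of 2.76 ± 0.28 (SE, adjusted p 7.26e-11 by edgeR). A single other library, the motor cortex of sheep 699 at 112 CPM, reached above the lowest MOG value of the pons.

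MAL and OPALIN had the smallest differences of the 9. MAL was at 177, 139, 105, 89.6 and 292 CPM in the pons, 2.95 ± 1.24 (SD, n = 5) times the mean of the other regions of the same animal. Only 2 of 5 pons libraries were above all others. OPALIN was at 410.0, 401, 333, 305 and 1077 CPM, and the pons of sheep 699 was the only one above all 45 other libraries. Their log2 fold changes were 1.62 ± 0.21 and 1.93 ± 0.28 (SE), with edgeR adjusted p of 1.33e-08 and 2.59e-07. In sheep 690 the basal ganglia were above the pons for 2 genes, and in sheep 694 the visual cortex was for 2 and the posterior parietal cortex for MAL. In all other cases the pons was the highest region of its animal.

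APOD, the secreted lipid carrier, had the largest fitted difference. It was at 2172, 2192, 1131, 731 and 2642 CPM in the pons, 8.61 ± 3.81 (SD, n = 5) times the mean of the other regions. The 45 other libraries lay between 56.5 and 880 CPM, and 4 of 5 pons libraries were above all of them. The log2 fold change was 3.22 ± 0.29 (SE), with an edgeR adjusted p of 2.59e-12.

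**Figure D2:**
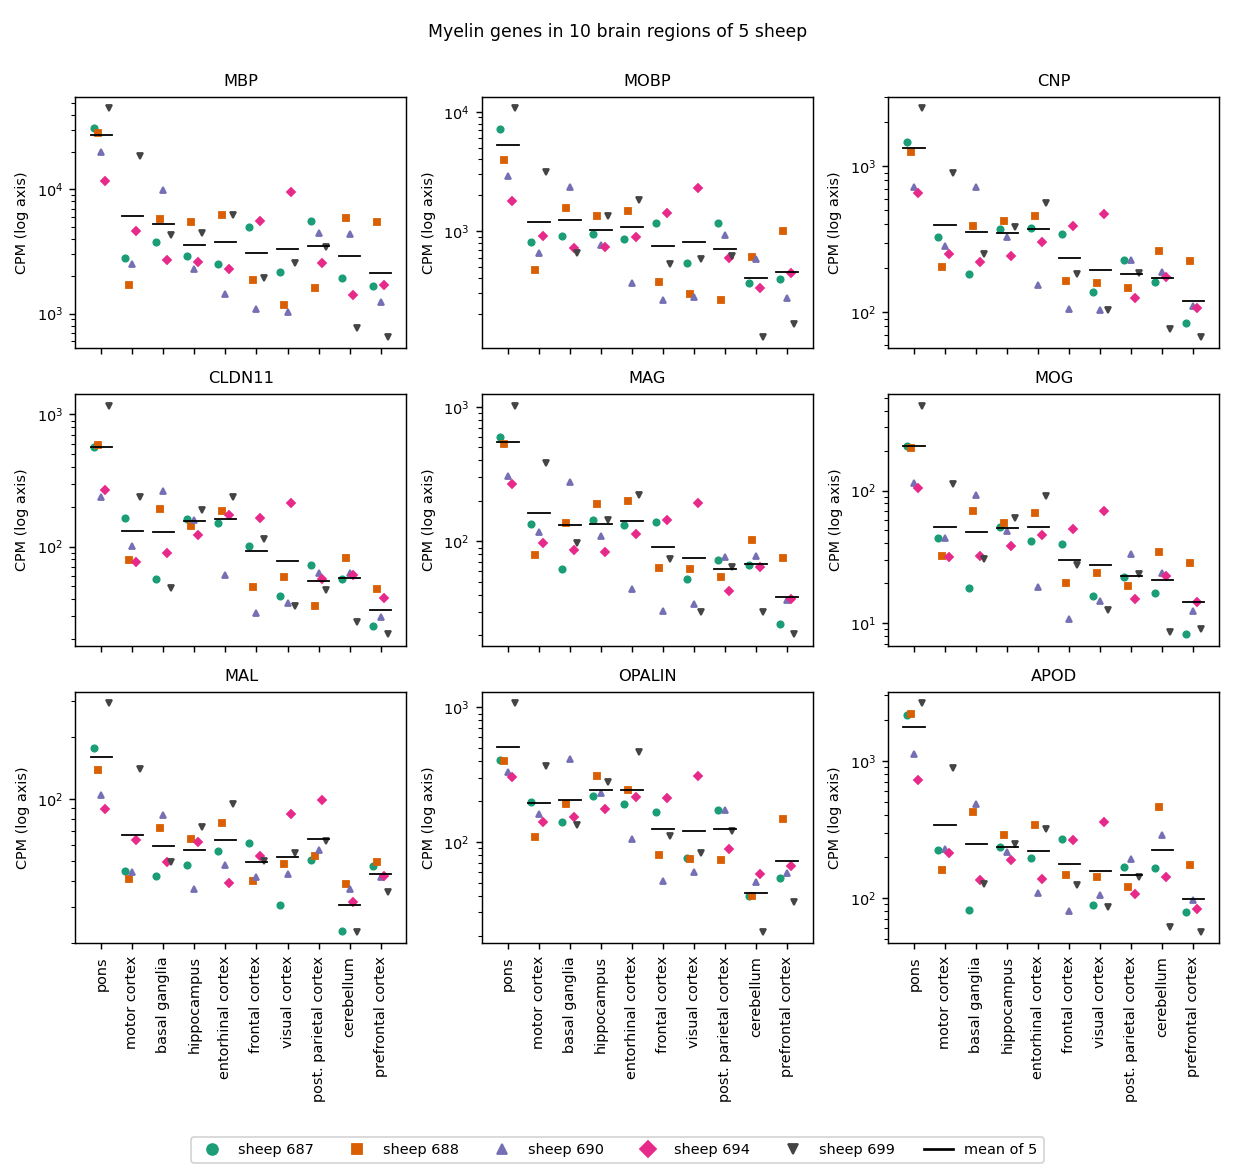
Level of each of the 9 genes in CPM on a log axis, by brain region, with 1 point per sheep and the mean of 5 as a bar. For each gene the mean is highest in the pons, and in the motor and visual cortex 1 animal stands above the other 4, sheep 699 and sheep 694 respectively.

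In the cerebellum 6 of the 9 genes were called lower than in the mean of the other regions, where 19.5% of all genes tested were called lower. OPALIN had the largest difference, with 40.0, 39.4, 50.03, 58.1 and 21.5 CPM in sheep 687, 688, 690, 694 and 699 and a log2 fold change of -2.32 ± 0.41 (SE, adjusted p 5.7e-06 by edgeR). Each cerebellum library was below the lowest posterior parietal library (73.2 CPM) and the lowest entorhinal one (105 CPM), while the prefrontal cortex, whose lowest library was at 35.9 CPM, overlapped the cerebellum. MOBP (-1.63), MAL (-1.29), MOG (-1.23), CLDN11 (-1.20) and CNP (-1.07) were also called lower on the log2 scale.

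MAG missed the required fold at -0.996 ± 0.407 (SE) on the log2 scale, with an adjusted p of 0.0322 by edgeR. MBP (-0.92 ± 0.52, SE, edgeR adjusted p 0.126) and APOD (-0.36 ± 0.39, SE, edgeR adjusted p 0.434) were not called. Without sheep 699, which had the lowest value of each of the 9 genes in the cerebellum, 3 genes were called in place of 6, and MOG, CNP and CLDN11 were no longer called. All 8 microglia genes and all 5 endothelial genes of the lists used were called lower in the cerebellum as well, and the part of these other cell types in the result was not tested.

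In the prefrontal cortex 5 of the 9 genes were called lower, against 0.705% of all genes tested. CLDN11 fell by most, with 25.1, 47.7, 29.5, 40.7 and 21.6 CPM in sheep 687, 688, 690, 694 and 699 and a log2 fold change of -1.79 ± 0.41 (SE, adjusted p 0.00452 by edgeR). MAG (-1.58), MOG (-1.52), APOD (-1.37) and CNP (-1.34) were called lower on the log2 scale. MOBP (-1.11 ± 0.49), OPALIN (-1.10 ± 0.37), MBP (-1.05 ± 0.53) and MAL (-0.43 ± 0.25, SE each) were not. These calls depended on the animals. Leaving out sheep 687 or 699 left 1 call, sheep 690 left 2 and sheep 694 left 3, and 6 genes were called without sheep 688, whose prefrontal library had the highest level of all 9 genes. CLDN11 was called in each of these fits.

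**Figure D3:**
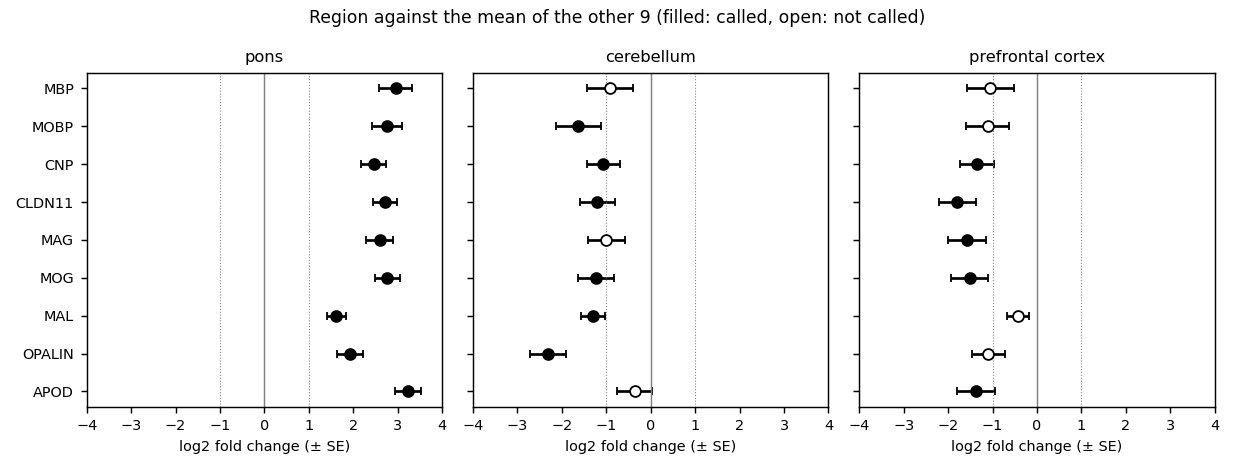
Log2 fold change of each of the 9 genes in the pons, cerebellum and prefrontal cortex against the mean of the other 9 regions. Points are edgeR estimates with their SE, filled where the gene was called, and the dotted lines mark the fold required. All 9 genes are filled in the pons, 6 in the cerebellum and 5 in the prefrontal cortex.

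In the other 7 regions edgeR called 0 of the 9 genes, and DESeq2 called 0 as well. Of all genes tested, edgeR called 10.3% in the basal ganglia, 4.62% in the hippocampus, 2.77% in the frontal, 2.66% in the posterior parietal, 2.24% in the entorhinal, 2.12% in the visual and 1.64% in the motor cortex. At an unadjusted p below 0.05, OPALIN alone passed in the basal ganglia, MAG alone in the motor cortex and CLDN11 alone in the posterior parietal cortex. The fitted log2 differences in these regions lay between -0.89, in the posterior parietal cortex, and 0.74, in the motor cortex.

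In 5 of the 10 regions the same animal had the highest level of all 9 genes. Sheep 699 had the highest level of all 9 genes in the motor cortex and in the pons, sheep 690 in the basal ganglia, sheep 694 in the visual cortex and sheep 688 in the prefrontal cortex. In the motor cortex MBP was at 2792, 1709, 2510 and 4604 CPM in sheep 687, 688, 690 and 694 and at 18695 CPM in sheep 699. In the visual cortex it was at 2158, 1176, 1034 and 2536 CPM in sheep 687, 688, 690 and 699 and at 9504 CPM in sheep 694. In other regions the 9 genes split, with the highest level in sheep 688 for 5 and in sheep 699 for 4 in the hippocampus, and over 3 animals in the posterior parietal cortex. The animal with the most myelin RNA thus changed from region to region. Sheep 699, highest in the pons, was lowest in the cerebellum for all 9 genes and in the prefrontal cortex for 8.

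None of the 9 genes was called different between the 5 animals over their regions. edgeR called 0 of 9, with adjusted p from 0.285 for MAL to 0.879 for CNP, 0 of 9 passed at an unadjusted p below 0.05, and DESeq2 also called 0, while 21.6% of all genes tested were called. The variation of log2(CPM + 1) was split by region and animal. Region accounted for 57.1 to 70.1% of the variation of a gene, animal for 0.899 to 5.28% and the remainder for 28.9 to 41.4%. The remainder is the difference of a single library from what its region and animal give. With 1 library of each region and animal, the dissection, the library and the animal's own region cannot be told apart in it. The medians of the region, animal and remainder shares over the 16028 genes with a mean of at least 1 CPM were 56.2, 6.86 and 33.7%. As a size, the remainder of the 9 genes had an SD of 0.46 (MAL) to 1.03 (MBP) on the log2 scale, against a median of 0.27 over all genes. A difference between animals of a given size is therefore harder to detect in them than in a gene at that median. Without the pons the share of region dropped to 19.3% for MBP and 27.9% for APOD, while it was 63.0% for OPALIN.

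The proportions among the 9 genes were not the same in each region. Counts per count of MOG are compared here between libraries, since gene length cancels only within a gene. OPALIN per MOG was 2.15 ± 0.59 in the cerebellum and 2.42 ± 0.51 in the pons, and 3.87 to 5.53 on average in the other 8 regions (SD, n = 5 each). The highest cerebellum library was at 2.58 and the highest pons library at 2.92, and of the 40 libraries of other regions only 1, the basal ganglia of sheep 688 at 2.74, was within that range. In each animal the lowest OPALIN to MOG ratio was in the cerebellum or the pons, 3 times in the former and 2 times in the latter.

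APOD per MOG went the other way in the same regions. It was 9.80 ± 3.12 in the cerebellum and 8.68 ± 2.04 in the pons, against means of 4.43 in the entorhinal cortex to 7.14 in the prefrontal cortex (SD, n = 5 each), with overlapping ranges. MAL per MOG was lowest in the pons, at 0.783 ± 0.113, and highest in the prefrontal cortex, at 3.56 ± 1.48. MBP per MOG ran from 67.6 ± 19.4 in the hippocampus to 156 ± 59.6 in the posterior parietal cortex, with wide spread within a region. MAG and CLDN11 kept closer to MOG, with regional means of 2.56 to 3.31 for MAG and 2.47 to 3.19 for CLDN11. No test was run on these ratios, which are given as a description.

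**Figure D4:**
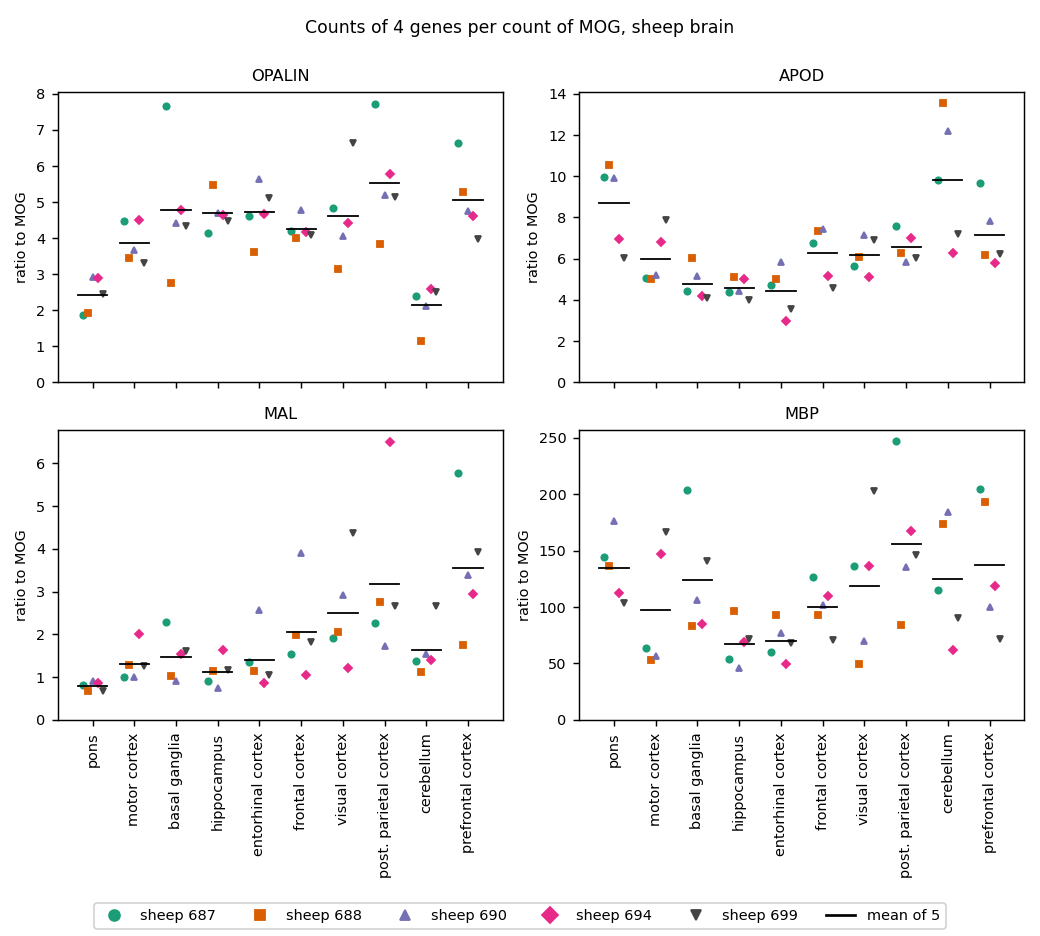
Counts of OPALIN, APOD, MAL and MBP per count of MOG in 10 brain regions, with 1 point per sheep and the mean of 5 as a bar. OPALIN per MOG is low in the pons and the cerebellum, where APOD per MOG is high, and MAL per MOG is lowest in the pons.

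Other genes of the oligodendrocyte lineage were also higher in the pons. Of 15 further myelin and paranode proteins 12 were called higher and 0 lower, with a median log2 fold change of 1.85. Among them were the junction protein gene JAM3 (1.85 ± 0.18) and the tetraspanin gene CD9 (1.33 ± 0.16, SE). Of 12 genes of myelin lipid synthesis 10 were called higher, among them UGT8, which makes galactosylceramide (3.12 ± 0.26), the fatty acid elongase ELOVL7 (1.87 ± 0.16) and the cholesterol enzyme HMGCS1 (1.27 ± 0.13, SE). Of 8 transcription factors of the lineage 6 were called higher, among them SOX8 (1.54 ± 0.16) and OLIG1 (1.06 ± 0.14), while OLIG2 missed the required fold (0.90 ± 0.16, SE). Of 10 genes of precursors and newly formed oligodendrocytes 4 were called higher, with a median of 0.45. ENPP6, of newly formed cells, was at 2.75 ± 0.26 and SOX6, of precursors, at 0.49 ± 0.12 (SE), which was not called.

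Genes of other cell types moved with the pons too, and their part in the result was not tested. Of 9 astrocyte genes 3 were called higher and 2 lower, with GFAP at 2.76 ± 0.17 and the glutamate transporter gene SLC1A2 at -1.93 ± 0.33 (SE). Of 11 neuron genes measured 3 were called higher and 5 lower, with the heavy neurofilament gene NEFH at 3.69 ± 0.32 and the vesicular glutamate transporter gene SLC17A7 at -3.27 ± 0.56 (SE). The summed level of the neuron list ran from 1074 to 13231 CPM in the pons and from 3995 to 7802 CPM in the motor cortex. In the pons the sum was 5450, 4868, 13231, 3335 and 1074 CPM for the neurons list, and the 9 myelin genes held 4.44, 3.76, 2.59, 1.60 and 6.52% of counts, in sheep 687, 688, 690, 694 and 699. Of 5 Schwann cell genes measured, the cells that make myelin in peripheral nerves, 3 were called higher and 1 lower. Of 4 choroid plexus genes measured 3 were called higher. Of these, TTR was at 38.2, 36.5, 261, 1229 and 12.6 CPM in the pons of sheep 687, 688, 690, 694 and 699. It was at 1583 CPM in the hippocampus of sheep 694, so its level differed widely between single libraries. Of 5 fibroblast genes 1 was called higher. None of 8 microglia and 5 endothelial genes were called in the pons.

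The genes whose region means were most like those of the 9 genes were found by Pearson correlation of each gene's 10 region means with the mean standardised profile of the 9, over 9379 genes with a mean of at least 10 CPM. These 10 points share their animals and the highest region, so the values are a description. EFHD1 (0.995), GALNT6 (0.995), PRR18 (0.993) and LIPE (0.993) came first. Each of the 9 genes is part of the profile it was compared with, which can raise its rank. MOG, CNP and MOBP themselves ranked 5, 6 and 7, MAG 26, CLDN11 45, MBP 69, APOD 82, MAL 142 and OPALIN 156. Without the pons GALNT6, SMIM5 and EFHD1 came first, OPALIN ranked 43 and MAL 230. Over 27 rat brain libraries, leaving out the 2 rich in ribosomal RNA, the first genes that are not among the 9 included SIRT2 (0.930) and GAL3ST1 (0.917).

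In rats the 9 genes lie, on the RefSeq annotation of GRCr8, at chr18:78130652-78241174 (Mbp), chr8:128747117-128777238 (Mobp), chr20:1514110-1528716 (Mog), chr1:95275728-95291133 (Mag), chr10:86011504-86018063 (Cnp), chr2:114136234-114149539 (Cldn11), chr3:135317664-135341423 (Mal), chr1:249840539-249858423 (Opalin) and chr11:82936216-82957264 (Apod). All are protein coding. Mbp, Mog, Mag and Mal overlap other annotated genes, and the strand setting of the counting is not given in the sources used here, so their counts may include reads of a neighbour.

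Whole rat brain held all 9 genes. Over the 29 brain libraries Mbp was lowest at 1072 CPM, had a median of 9184 and was highest at 23382 CPM. Mobp ranged from 285 over a median of 2557 to 6196 CPM, and Cnp from 45.6 over 514 to 818 CPM. Mag ranged from 14.4 over 149 to 207 CPM and Mog from 3.19 over 48.8 to 84.3 CPM. The lowest value of each of these came from brain library 1 or 4, in which 3 ribosomal RNA entries took 86.9 and 83.1% of the counts, so that the totals behind CPM were mostly ribosomal. Without those libraries Mbp was at 9449 ± 3839, Mobp at 2720 ± 1033, Cldn11 at 364 ± 108, Mal at 287 ± 81.4, Apod at 203 ± 63.1, Mag at 144 ± 33.5 and Opalin at 130 ± 31.1 CPM (SD, n = 27 each).

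The Mbp to Mog ratio does not depend on the library total. It was between 118 and 278 in 26 of the 29 rat brains and reached 302 in rat 1, 746 in rat 2 and 940 in rat 4. Mobp per Mog was also highest in rats 2 and 4, at 198 and 251, against at most 83.5 in the other 27. The ribosomal entries took 86.9% of counts in rat 1 and 83.1% in rat 4 but only 7.18% in rat 2, and rat 22, at 54.0%, had an Mbp to Mog ratio of 155. The part of these counts in the ratios was not tested.

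Between females and males edgeR called 0 of the 9 genes, with adjusted p from 0.734 to 0.962. At an unadjusted p below 0.05 none passed, DESeq2 called none either, and 0.0583% of all genes tested were called. The log2 differences, female over male, lay between -0.09 ± 0.11 for Opalin and 0.15 ± 0.15 for Cldn11 (SE).

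Outside the brain the 9 genes parted. In the ovary all 9 were called lower than in female brain, where 29.2% of all genes tested were. Opalin was at 1 count over the 14 ovary libraries together, in a single library, against a median of 117 CPM in female brain. Mbp was at 3.00 to 11.3 CPM, Mal at 2.47 to 10.7, Mobp at 0.0168 to 1.05, Mag at 0.12 to 0.732, Mog at 0 to 0.329 and Apod at 0 to 0.629 CPM.

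Cnp and Cldn11 had the smallest folds between brain and ovary. Cnp, which many tissues outside the nervous system express, was at 74.2 to 198 CPM with a median of 105 CPM, and female brain held 4.01 times as much on average. Cldn11, which is also a tight junction protein of Sertoli cells in the testis, was at 13.8 to 64.4 CPM with a median of 33.4 CPM, and female brain held 9.45 times as much. Their log2 fold changes were -2.30 ± 0.16 and -3.58 ± 0.21 (SE), with edgeR adjusted p of 3.56e-14 and 4.45e-16. Ovary and brain values overlapped only through brain library 1. Without it the lowest brain was at 282 CPM of Cnp and 170 CPM of Cldn11.

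The stretches before the starts of 4 of these genes are shown to set Mobp and Mag, low in the ovary, beside Cnp and Cldn11, which were counted there. They are from RefSeq on GRCr8, run 5′ to 3′ on the gene's strand, and hold only the bases outside the annotated gene among the 250 bases before the start that the table uses: chr8:128746982-128747116 on the plus strand for Mobp, chr1:95291134-95291294 on the minus strand for Mag, chr10:86011254-86011503 on the plus strand for Cnp and chr2:114149540-114149789 on the minus strand for Cldn11. Capitals mark 5 motifs on either strand. ACAAAG is the first form searched of the core that SOX proteins such as SOX10 bind, and the second form is ACAATG. The E-box CAGCTG is of the kind that OLIG proteins bind. The forms searched of the MYRF site were CTGGCAC and also CTGGTAC.
Mobp: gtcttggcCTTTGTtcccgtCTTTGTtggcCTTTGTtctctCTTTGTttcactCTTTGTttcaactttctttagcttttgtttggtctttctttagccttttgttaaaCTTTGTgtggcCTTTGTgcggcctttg
Mag: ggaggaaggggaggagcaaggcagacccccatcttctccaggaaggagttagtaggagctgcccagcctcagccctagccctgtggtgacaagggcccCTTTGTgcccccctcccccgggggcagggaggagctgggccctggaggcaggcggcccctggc
Cnp: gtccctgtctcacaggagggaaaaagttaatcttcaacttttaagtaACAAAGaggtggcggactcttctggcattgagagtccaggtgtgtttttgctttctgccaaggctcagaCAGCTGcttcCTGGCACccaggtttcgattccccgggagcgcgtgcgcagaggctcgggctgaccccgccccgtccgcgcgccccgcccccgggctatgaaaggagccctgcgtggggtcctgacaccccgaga
Cldn11: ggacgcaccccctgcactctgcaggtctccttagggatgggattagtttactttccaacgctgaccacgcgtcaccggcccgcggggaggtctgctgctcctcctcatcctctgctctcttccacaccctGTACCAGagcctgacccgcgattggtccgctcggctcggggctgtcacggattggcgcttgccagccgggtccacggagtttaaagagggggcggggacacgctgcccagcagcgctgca

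Of the 9 genes 8 were in the promoter table, and Mog was not. In the 250 bases before the start, Mobp held 8 matches to ACAAAG, all on the opposite strand, 7 of them in the stretch shown. Only 2 of the 33469 promoters of the table held as many as 8, and 16.3% held at least 1. ACAATG was in 11.1%, CAGCTG in 12.0%, CTGGCAC in 3.78% and CTGGTAC in 1.78% of them. Of the 5 motifs, Mag held the first SOX form and CTGGCAC, the latter at least in part inside the annotated gene. Cnp held the first SOX form, the E-box and CTGGCAC. Cldn11 held CTGGTAC alone. The 250 bases held 19 CpG pairs in Cldn11 and 16 in Cnp, against 6 in Mag, 3 in Mobp and a median of 5 over all promoters. Mal held 14, the 2 promoters listed for Mbp held 12 and 11, Apod held 4 and Opalin 2. Mean ovary levels were 123 CPM for Cnp, 34.7 for Cldn11, 5.76 for Mbp and 5.6 for Mal. They were 0.351 for Mag, 0.323 for Mobp, 0.2 for Apod and 0.0012 CPM for Opalin. Whether the number of CpG pairs follows the ovary level was not tested, and CPM are not divided by gene length. Of all promoters 25.8% held at least 15 CpG pairs. These matches describe the letters of the window and not a bound site, and Mobp was singled out after its count was seen.

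In rat sperm all 9 genes were again called lower than in male brain, where 31.5% of all genes tested were. Cnp was at 13.6 to 74.5 CPM with a median of 40.5 CPM, 13.8 times lower than brain on average, and Mal at 1.49 to 174 CPM with a median of 31.5 CPM, 6.1 times lower. Their log2 fold changes were -3.47 ± 0.22 and -2.30 ± 0.40 (SE), with edgeR adjusted p of 2.47e-15 and 5.53e-06. Both overlapped the brain only through brain library 4. Mbp was at 0.0729 to 4.32 CPM, and no sperm library of the other 7 genes reached the brain range.

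Sperm libraries 7 and 14 stood apart from the other 13. In them Mag was at 3.96 and 2.91 CPM from 183 and 170 counts, while 9 of the other 13 libraries had 0 counts and the highest was at 0.346 CPM. Mobp was at 3.07 and 2.23 CPM there and at most 0.384 CPM in the others, and Cldn11 at 26.9 and 32.3 CPM against at most 6.15 CPM. Cnp and Mal were not raised there: the lowest 2 Cnp values of the 15 were in these libraries, at 13.6 and 14.8 CPM. Their summed level of the 12 genes of a list for spermatids and sperm was 28133 and 30841 CPM, against 314 to 11457 CPM in the others. SNAP25, of neurons, was at 0 in both, and SOX10, of oligodendrocytes, at 0 and 0.48 CPM. The part of other cells in these values was not tested. Without libraries 7 and 14 the mean of Mag was 0.0361 CPM in place of 0.49 and that of Mobp 0.0836 in place of 0.426. The log2 fold change of Mobp was -12.38 by edgeR, -14.11 with the rat number as a block, -14.51 without libraries 7 and 14 and -4.26 by DESeq2. That of Mag was -7.88, -10.89, -11.39 and -4.06 in the same order. Both genes were called lower in each of these fits.

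**Figure D5:**
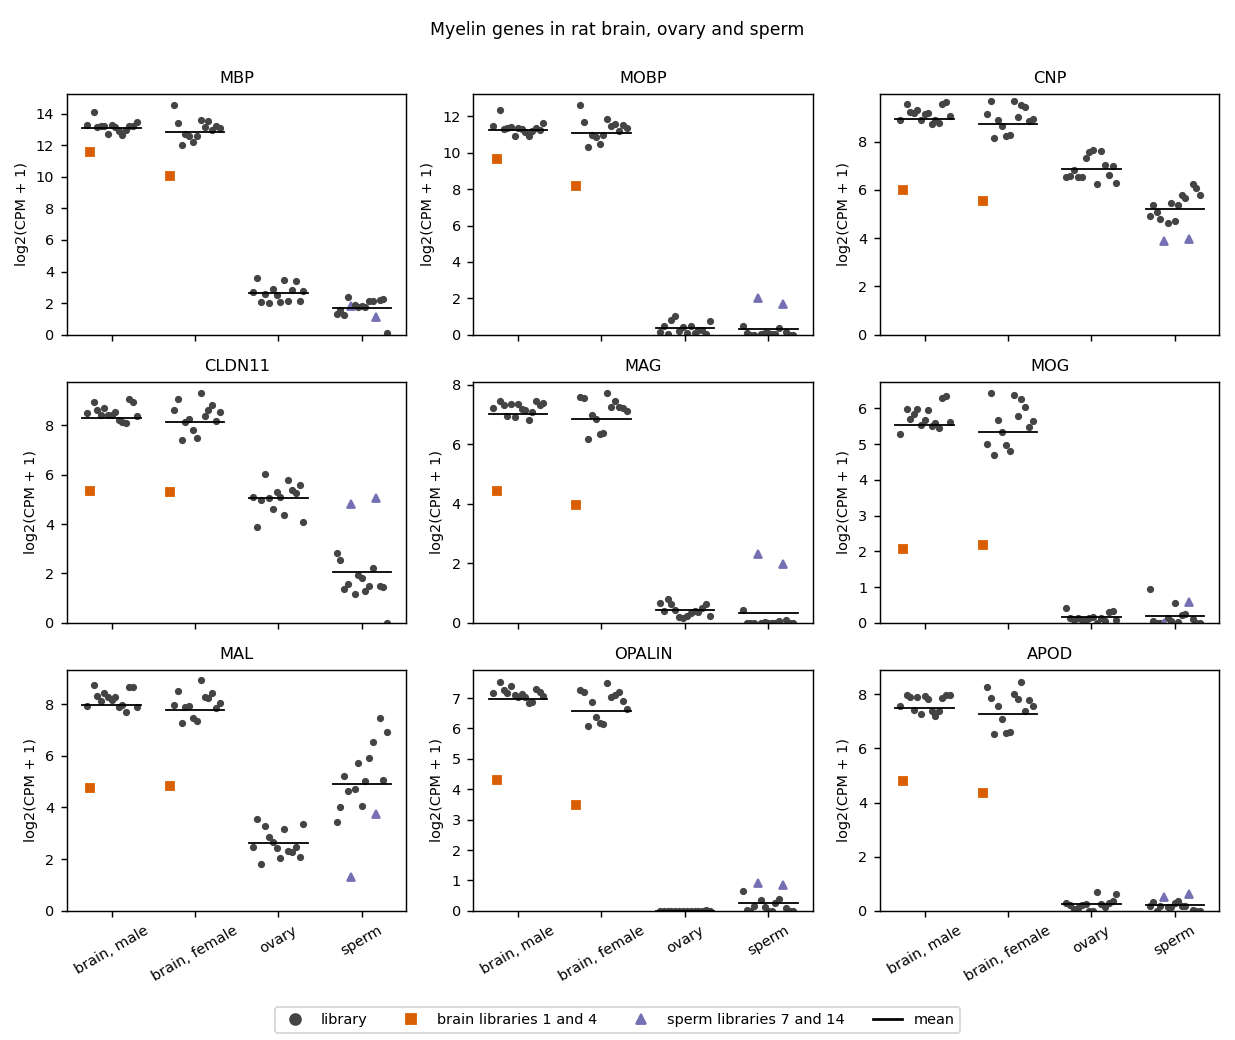
Level of the 9 genes in rat brain, ovary and sperm as log2(CPM + 1), with 1 point per library and the group mean as a bar. Orange squares are brain libraries 1 and 4, rich in ribosomal RNA, and purple triangles sperm libraries 7 and 14, which are the highest sperm libraries for MOBP, MAG and CLDN11.

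In sheep sperm 8 of the 9 genes were called lower than in the mean of the 10 regions, where 41.1% of all genes tested were called lower and 33.1% higher. APOD had 0 counts in all 5 libraries, MAG and CLDN11 had 0 in 3 of 5, and OPALIN was at most at 0.609 CPM. MBP was at 0.783, 9.91, 3.07, 11.9 and 1.43 CPM in sheep 687, 688, 690, 694 and 699. On plain totals no sperm library of these 8 genes reached the lowest brain library. The TMM factors used for the calls were 0.124 to 0.343 in sperm, so single libraries can compare otherwise on that scale. Sheep 688 had the highest CNP at 44.4 CPM, against 0.184 to 8.73 CPM in the other 4.

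MAL alone was called higher in sheep sperm. It was at 10.7, 1183, 316, 112 and 185 CPM in sheep 687, 688, 690, 694 and 699, and the 50 brain libraries lay between 22.7 and 292 CPM. The 5 sperm libraries thus spread from below all brain libraries, in sheep 687, to above all, in sheep 688 and 690. In sheep sperm 4 entries with placeholder symbols took 85.2, 22.4, 52.9, 60.4 and 75.8% of the counts of these animals, against at most 14.6% in sheep brain. On totals without those entries MAL was at 72.4, 1524, 671, 283 and 761 CPM in the same order of animals. The brain libraries then lay between 24.4 and 307 CPM, so that 3 sperm libraries were above all of them and none was below. The log2 fold change was 4.91 ± 0.24 (SE, adjusted p 8.96e-25 by edgeR) and 2.62 when plain library totals replaced the TMM factors. The fit held the 50 brain libraries together with the 5 sperm libraries. Its SE and p therefore do not measure the wide spread of the sperm libraries alone. With single sheep left out the log2 fold change ran from 3.87 to 5.20, and the mean level from 156 to 449 CPM. Both ends of that range of fold changes lay further from 4.91 than the SE. The plain library totals also moved the median log2 fold change of all genes tested from -0.42 to -2.84. The share of called genes that were higher moved from 44.6 to 17.7%.

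Genes of other cells varied with MAL in sheep sperm. The summed level of 8 genes of stratified squamous epithelium was 1039, 43592, 8930, 3020 and 5803 CPM in sheep 687, 688, 690, 694 and 699, which is the same order of animals as for MAL. Both are levels over the same totals, and the placeholder entries took the largest share in sheep 687, lowest in both, and the smallest in sheep 688, highest in both. That of 6 neutrophil genes ran from 1582 CPM in sheep 687 to 39945 CPM in sheep 688. PRM1, of sperm, was at 546, 41.4, 536, 146 and 1033 CPM in sheep 687, 688, 690, 694 and 699. TNP1 and ODF1, also of sperm, were lowest in sheep 688 too, at 1.24 and 1.55 CPM. The keratin gene KRT13, singled out after its values were seen, was at 708 CPM in sheep 687 and 17887 CPM in sheep 688. MAL is also known as a protein of such epithelia, and the part of these cells in its level was not tested.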

How the data were processed

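RNA was sequenced as paired reads of 150 bases with stranded library kits, per the labels' protocols. The submitters' processing notes name Rsubread v2.20.0 for counts, STAR v2.7.5a for alignment and, before it, Trimmomatic v0.39. The authors deposited raw counts per gene, in 1 table per sheep and 1 per rat tissue with a column for each library, and all columns of libraries were used. Totals and CPM hold all entries of a table.

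Differences were tested with edgeR 4.0.16 (R 4.3.3), using TMM factors, the filterByExpr filter and the quasi-likelihood test with Benjamini-Hochberg adjustment over all genes. DESeq2 1.42.0, other scalings, no filter, blocks for the animal and leaving out animals or libraries were alternatives. The left-out libraries (pons of sheep 694, brain 1 and 4, sperm 7 and 14, sperm 16 and 17) were chosen after seeing the data. The sheep region fit was also run on simulated libraries with no animal effect and differences set in the pons alone. That run did not cover the sperm or rat fits, and its outcome is not given here.

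The 9 genes and the marker lists were chosen with earlier results of these data known. Beside the 9 genes, those named were, per list, at most 3 with the smallest p over the sheep regions among genes with a mean of at least 10 CPM, and the genes most alike. Other marker genes were named after their values were seen. Sheep numbers pair samples, since the labels give the same animal, and the median correlation of deviations was 0.179 over 225 pairs of regions. In rats, libraries of different tissues share numbers, but the labels used here do not say in words that a number is 1 animal, and p-values measure the spread between libraries. Some genes of the lists are not reported here.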

Additional observations from a re-analysis of the deposited data

Results flagged for a closer look

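In groups of 5 sheep libraries, 25 of 98 sets of 5 values had a highest value whose gap to the next was over 0.71 of the whole range. Both ends were examined, and for normally distributed values a gap at either end is found in about 1 in 20 sets. These values are plain CPM, for which that rate need not hold, so it is no measure of chance here. The 9 genes also share their libraries, so the sets are not independent. Most came from 3 libraries.

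In the visual cortex of sheep 694, MBP was at 9504, MOBP at 2323, MOG at 69.7, MAG at 195, CNP at 473, CLDN11 at 214, OPALIN at 308 and APOD at 357 CPM. The next highest visual cortex library had 2536 CPM of MBP and 23.7 CPM of MOG. In the motor cortex of sheep 699, MBP was at 18695, MOBP at 3125, MOG at 112, MAG at 385, CNP at 900.3, MAL at 139.9 and APOD at 880 CPM, and the next highest library had 4604 CPM of MBP and 44.1 CPM of MOG. In the prefrontal cortex of sheep 688, MBP was at 5446, CNP at 225 and OPALIN at 149 CPM.

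Single genes stood apart in other libraries. OPALIN was at 1077 CPM in the pons of sheep 699, where the next pons was at 410.0 CPM, and at 413 CPM in the basal ganglia of sheep 690. MAL was at 99.5 CPM in the posterior parietal cortex of sheep 694.

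In sheep sperm MAL was at 1183 and CNP at 44.4 CPM in sheep 688, MOG at 1.05 CPM in sheep 694 and MAG at 0.232 CPM in sheep 699.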

How the results depend on the processing

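The number of the 9 genes called was the same under all alternatives run for the pons (9), all regions together (9), sheep sperm, rat sperm and ovary (9 each), the animals (0) and rat sex (0). With single sheep left out it ran from 3 to 8 in the cerebellum, from 1 to 6 in the prefrontal cortex and from 0 to 2 in the visual cortex. The 2 visual calls came without sheep 694.

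Over all genes, leaving out single sheep gave 249 to 635 calls in the entorhinal cortex, 387 to 627 in the frontal cortex, 625 to 1168 in the hippocampus, 229 to 456 in the motor cortex, 322 to 612 in the posterior parietal cortex, 304 to 570 in the prefrontal cortex, 281 to 535 in the visual cortex and 2887 to 3805 between animals. Rat sperm had 12111 calls, 22067 with no filter on low counts and 18371 by DESeq2, and ovary 11832 and 18799 with no filter. Rat sex had 12, 19 with no filter, 37 by DESeq2 and 22 without brain libraries 1 and 4. The cause was not tested.

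With single sheep left out, the log2 difference changed sign for 8 genes in the motor cortex, each time without sheep 699. It ran there from -0.58 to 1.06 for MBP, -0.44 to 0.73 for MOBP, -0.018 to 0.82 for MOG, -0.011 to 1.02 for MAG, -0.11 to 0.84 for CNP, -0.022 to 0.64 for CLDN11, -0.24 to 0.48 for MAL and -0.25 to 1.02 for APOD. In the basal ganglia it ran from -0.037 to 0.67 for MAG and -0.22 to 0.42 for APOD. In the entorhinal cortex it ran from -0.13 to 0.24 for MOBP and -0.12 to 0.16 for MAL. In the hippocampus it ran from -0.21 to 0.11 for MOBP. In the posterior parietal cortex it ran from -0.48 to 0.13 for MBP and -0.36 to 0.020 for OPALIN. These turns came without sheep 690 in the basal ganglia, without sheep 688 or 699 (MOBP) and 690 or 694 (MAL) in the entorhinal cortex, without sheep 694 in the hippocampus and without sheep 688 in the posterior parietal cortex. No gene named here was called in these regions with all 5 sheep.

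With the animal as a replicate block, MOBP in the entorhinal cortex was at -0.0044, and the block changed no call of the 9 genes. For rats, numbers shared by tissues gave a median correlation of deviations of 0.066 (sperm and brain) and 0.0315 (ovary and brain), and the block gave 11925 and 11837 calls. Low counts limit the values outside the brain most, where several genes had 0 counts in some libraries.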
